A study of Mus musculus with 2 samples.

Results

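Endothelin, angiotensin, nitric oxide and prostacyclin are signals that set the tone of the pulmonary vessels, and 10 genes of these 4 pathways were described in newborn mouse lung. The genes were Edn1, Ednra and Ednrb of the endothelin pathway, Ace, Agtr1a and Agtr2 of the angiotensin pathway, Nos3, Gucy1a3 and Gucy1b3 of the nitric oxide pathway, and Ptgis of prostacyclin synthesis. The rule lists them by name and uses no measured value, but the list was drawn up with earlier results of these data known. All 10 had UMIs in both batches, among the 27254 genes listed in either matrix. Whole lungs of 2 wild-type female C57BL/6J mice at postnatal day 1 were dissociated and their cells captured by Drop-seq, in which droplets pair each cell with a barcoded bead, with 1 mouse in Batch 1 and the other in Batch 2. There was no treatment, and the comparisons are between cell types of the same lungs. Each transcript carried a unique molecular identifier (UMI), so that copies made in amplification were counted once. Cells with at most 10% mitochondrial UMIs were used, which were 2388 in Batch 1 and 5615 in Batch 2, with no cell barcode shared between batches. They held 4432553 and 18232639 UMIs, with a median of 1386.5 and 2014 UMIs per cell, and the 10 genes took 2892 and 14288 of them, or 6.52 and 7.84 per 10000. Levels below are UMIs of a gene per 10000 UMIs of a cell group, with an exact Poisson 95% interval in parentheses, and shares of cells are those with at least 1 UMI. The intervals cover counting error only.

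The pathways act between neighbouring cells. Endothelin-1, the peptide made from Edn1, is released by endothelial cells and constricts smooth muscle through the type A receptor Ednra, while the type B receptor Ednrb on endothelium clears the peptide and promotes release of nitric oxide and prostacyclin. Ace, the angiotensin-converting enzyme, sits on the surface of lung capillary endothelium and makes angiotensin II, which constricts vessels through the type 1 receptor Agtr1a and often opposes that effect through the type 2 receptor Agtr2. Endothelial nitric oxide synthase, Nos3, makes nitric oxide, which binds soluble guanylate cyclase in mural cells, a heterodimer whose alpha and beta subunits are encoded by Gucy1a3 and Gucy1b3, and the cyclic GMP it makes relaxes them. Ptgis is prostacyclin synthase, which makes the vasodilator prostacyclin. These pathways take part in the fall of pulmonary vascular resistance after birth.

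Cells were grouped by clustering of their counts with the 10 genes and the other listed pathway genes left out, and clusters were named from known markers. Blood endothelium held 532 cells in Batch 1 and 1463 in Batch 2, mural cells 75 and 242, matrix fibroblasts 928 and 1286, a group rich in Tgfbi (myofibroblasts and airway smooth muscle share this marker) 161 and 419, epithelium 350 and 1435, and immune cells 175 and 520. The blood endothelial marker list summed to 69.5 and 56.6 UMIs per 10000 in blood endothelium (9 of 9 markers detected in each batch), against 1.74 and 1.22 in mural cells and 0.784 and 0.849 in matrix fibroblasts. The pericyte list summed to 71.0 and 42.1 in mural cells and to 3.61 and 3.15 in blood endothelium. Globin and other erythroid markers summed to between 184 and 234 in every one of the 6 groups in Batch 1 and to between 19.3 and 73.0 in Batch 2. Free RNA in droplets gives UMIs to cells that do not express a gene, so the values in immune cells, which should lack most of these genes, are given as the background, at median depths of 1388 and 1820.5 UMIs per immune cell.

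On GRCm38 the cyclase subunit genes lie close together on chromosome 3. Gucy1a3 (now named Gucy1a1, ENSMUSG00000033910.13) spans chr3:82092427-82145789 and Gucy1b3 (now Gucy1b1, ENSMUSG00000028005.13) spans chr3:82032006-82074689, both on the minus strand. Edn1 (ENSMUSG00000021367.8) spans chr13:42301476-42307990 on the plus strand, Ace (ENSMUSG00000020681.14) chr11:105967945-105989964 on the plus strand and Nos3 (ENSMUSG00000028978.12) chr5:24364810-24384474 on the plus strand. Exon bases are shared with another gene by 6 of the 10, mostly on the opposite strand, the longest run being the 294 bases that Nos3 shares with Atg9b. Atg9b had 10 and 29 UMIs in blood endothelium and 0 in mural cells and matrix fibroblasts in both batches. Whether the counting used strand is not given in the sources used here, so reads from these shared stretches may have been split.

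The promoters of 7 of the 10 genes were found in RefSeq (GRCm38.p6), and 4 are shown, those of a ligand and an enzyme of endothelium and of the paired cyclase subunits of pericyte-like cells, since their genes stand for the endothelial and mural patterns described below. Ace and Gucy1a3 each have 2 listed promoters, of which the first is shown. Each sequence runs from 250 bases before the start site to 50 bases after it, 5′ to 3′ on the strand of the gene. Capitals mark matches on either strand to a TATA box motif (TATAAA), to the core of sites bound by SP factors (GGGCGG), to that of ETS factors (CCGGAA) and to that of GATA factors (AGATAA).
Edn1 promoter, chr13:42301226-42301525, plus strand: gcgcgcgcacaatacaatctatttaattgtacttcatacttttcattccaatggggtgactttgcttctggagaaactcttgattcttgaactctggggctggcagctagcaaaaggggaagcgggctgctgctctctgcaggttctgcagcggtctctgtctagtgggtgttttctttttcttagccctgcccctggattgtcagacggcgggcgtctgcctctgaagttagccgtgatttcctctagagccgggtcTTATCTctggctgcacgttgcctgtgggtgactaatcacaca
Ace promoter, chr11:105967698-105967997, plus strand: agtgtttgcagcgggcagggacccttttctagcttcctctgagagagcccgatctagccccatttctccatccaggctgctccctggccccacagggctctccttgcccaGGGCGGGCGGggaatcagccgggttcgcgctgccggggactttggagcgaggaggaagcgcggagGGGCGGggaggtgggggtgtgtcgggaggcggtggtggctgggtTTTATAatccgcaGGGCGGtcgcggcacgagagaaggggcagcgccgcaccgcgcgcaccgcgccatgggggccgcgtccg
Gucy1a3 promoter, chr3:82145601-82145900, minus strand: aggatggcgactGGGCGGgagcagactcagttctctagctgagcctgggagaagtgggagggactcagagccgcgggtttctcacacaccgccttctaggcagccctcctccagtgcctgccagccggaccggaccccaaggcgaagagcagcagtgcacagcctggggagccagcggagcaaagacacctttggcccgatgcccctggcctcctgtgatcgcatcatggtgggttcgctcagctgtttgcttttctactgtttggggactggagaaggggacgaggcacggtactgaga
Gucy1b3 promoter, chr3:82074662-82074961, minus strand: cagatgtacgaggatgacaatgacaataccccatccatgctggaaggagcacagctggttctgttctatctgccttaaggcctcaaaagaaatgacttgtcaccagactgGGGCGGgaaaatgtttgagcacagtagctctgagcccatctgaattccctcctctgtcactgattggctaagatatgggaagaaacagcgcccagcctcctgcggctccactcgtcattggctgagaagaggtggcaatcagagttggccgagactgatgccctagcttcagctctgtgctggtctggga

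The Edn1 promoter held AGATAA on the minus strand, beginning 8 bases after the start site, a motif found in 11.2% of 32851 promoters of this length. The Ace promoter held GGGCGG 4 times, at -140, -136, -75 and -18, the first pair overlapping, and TATAAA on the minus strand at -31. The cyclase promoters shown held GGGCGG once each, at -238 for Gucy1a3 and -140 for Gucy1b3. The second listed promoters of Ace (chr11:105974939-105975238) and Gucy1a3 (chr3:82145024-82145323) held none of the 4 motifs. GGGCGG was in 35.7% of all promoters and TATAAA in 13.6%. A match describes the sequence and does not by itself show whether a factor binds there. CCGGAA, in 14.9% of promoters, was in none of the 4.

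The 10 genes fell into endothelial, mural and fibroblast patterns. Edn1, Ednrb, Ace and Nos3 were higher in blood endothelium than in mural cells, and Ednra, Agtr1a, Gucy1a3, Gucy1b3 and Ptgis were lower, so that 9 of 10 passed the test (edgeR's quasi-likelihood test on UMIs summed by cell group and batch, with the mouse as a block, Benjamini-Hochberg adjusted over 11792 genes at 0.05). In this comparison 15.9% of all genes tested passed, 7.82% higher and 8.06% lower in endothelium. Against matrix fibroblasts 7 of 10 passed, 4 higher and 3 lower in endothelium, where 27.0% of all genes passed, 13.6% higher and 13.3% lower. Between mural cells and matrix fibroblasts 4 of 10 passed, 3 higher and 1 lower in mural cells, where 8.34% of all genes passed, 4.29% higher and 4.05% lower. All 10 genes passed the filter on low counts in these fits. A gene passes it with enough UMIs in a single cell group, so passing does not mean enough UMIs in both groups compared. Agtr1a, for example, had 0 and 3 UMIs in blood endothelium. The median log2 difference of the 10 was -1.65, -0.60 and 0.51, against 0.10, -0.03 and -0.10 over all genes. Each test rests on 2 mice, and all cell groups of a mouse were compared within it. The standard error (SE) printed with a log2 difference is its size divided by the square root of the test's F statistic. It restates the test and is no separate estimate of the spread. Where a group held few UMIs, it can be narrower than the exact interval of the counts.

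**Figure D1:**
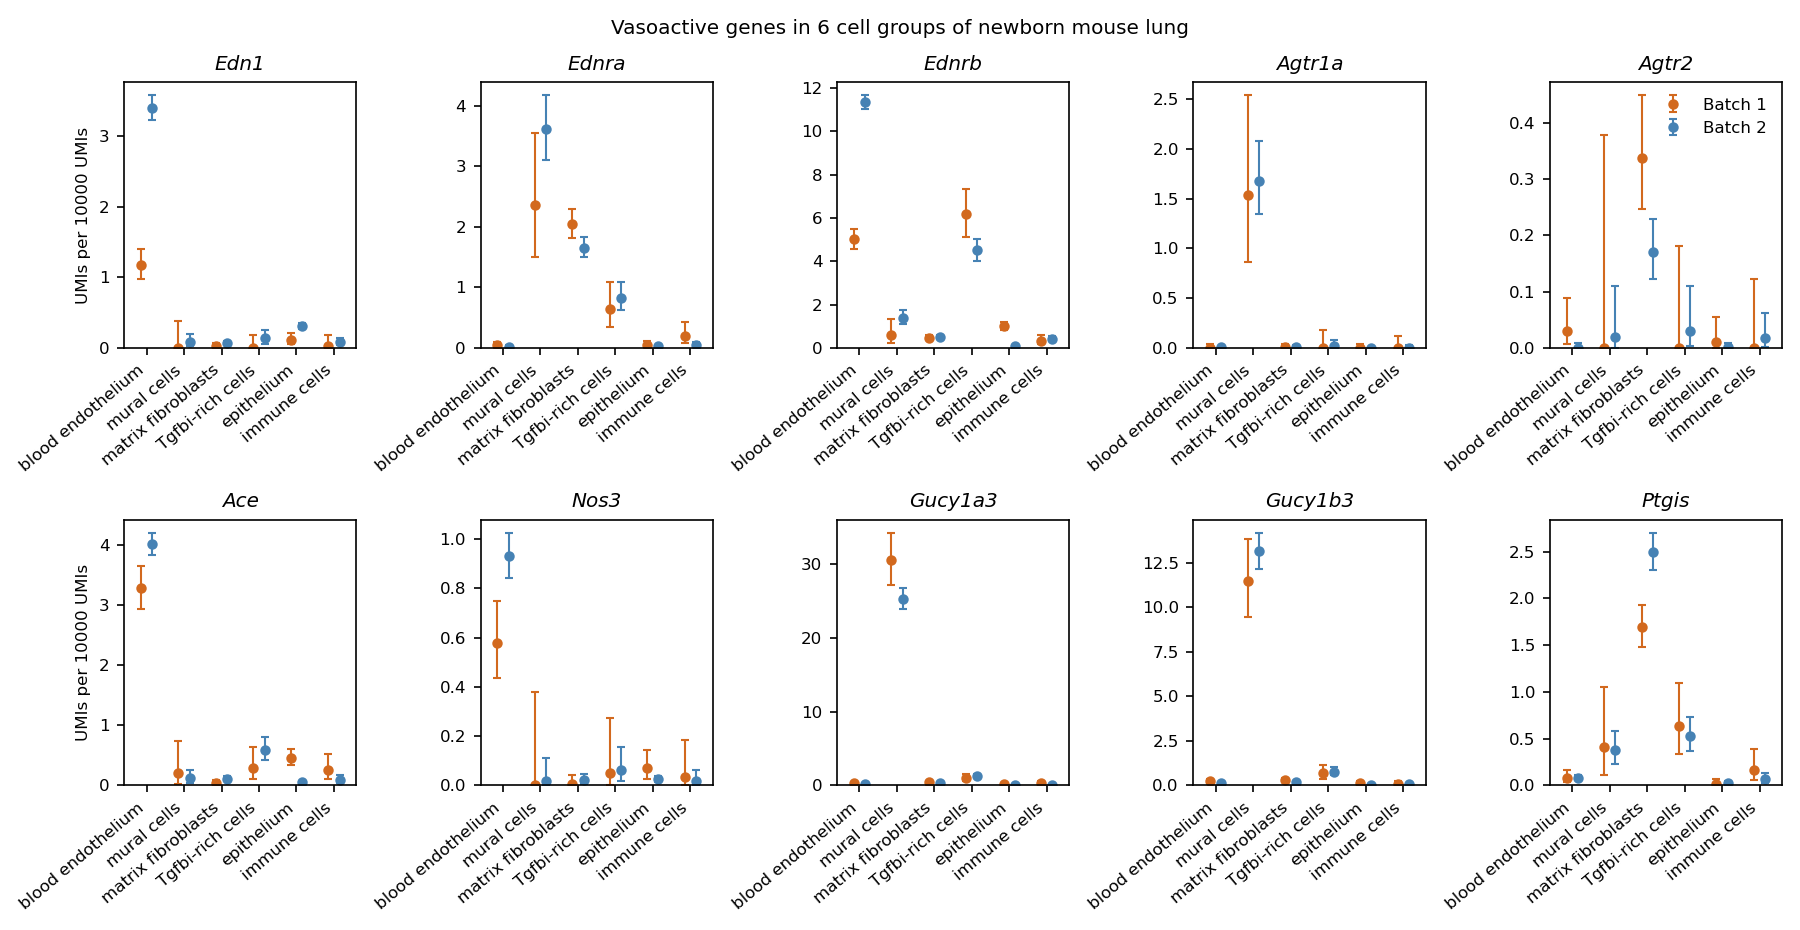
UMIs of each gene per 10000 UMIs (vertical axes, a separate scale for each gene) in 6 cell groups, with orange points for Batch 1 and blue points for Batch 2 and bars for the exact Poisson 95% interval, which covers counting error only. Edn1, Ednrb, Ace and Nos3 stood high in blood endothelium, Agtr1a, Gucy1a3 and Gucy1b3 in mural cells, Ptgis and Agtr2 in matrix fibroblasts and Ednra in mural cells and matrix fibroblasts.

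Edn1, the ligand gene of the endothelin pathway, was read mostly in endothelium, which held 87.2% of its UMIs in Batch 1 and 81.4% in Batch 2. Its level in blood endothelium was 1.18 UMIs per 10000 in Batch 1 (95% interval 0.971 to 1.41, 116 UMIs) and 3.41 in Batch 2 (3.24 to 3.59, 1504 UMIs). Mural cells had 0 UMIs in Batch 1 and 4 in Batch 2, and matrix fibroblasts 3 and 16. The log2 difference was 5.67 (SE 0.50, adjusted p = 2.68e-06, edgeR) against mural cells and 5.64 (SE 0.37, adjusted p = 1.06e-07, edgeR) against matrix fibroblasts. Endothelium was the highest group in both mice, while the endothelial level itself stood apart between the mice. The share of endothelial cells with an Edn1 UMI was 12.2% and 32.5%, against 0.571% and 1.54% of immune cells, and after each cell was thinned to 600 UMIs it was 6.39% and 13.4%.

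Edn1 was also read in epithelium, at 0.119 UMIs per 10000 in Batch 1 (0.0615 to 0.208) and 0.308 in Batch 2 (0.271 to 0.349). The blood endothelial marker list summed to 7.47 and 0.548 in these epithelial cells. The part of endothelial RNA in the epithelial Edn1 values was not tested. In the airway class of Batch 2 it was found in 23.7% of 118 cells at 0.433 per 10000, and thinning to 600 UMIs brought the share to 3.39%, against 0.385% of thinned immune cells. The 13 airway cells of Batch 1 had 0 Edn1 UMIs, which allows a share of cells with a UMI of up to 23.1%. Their median depth was 3431 UMIs against 6079.5 in Batch 2, and the mice were not compared for this class.

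Ednra, the type A receptor, was shared by mural cells and matrix fibroblasts and nearly missing from endothelium. Mural cells had 2.36 UMIs per 10000 in Batch 1 (1.50 to 3.54) and 3.61 in Batch 2 (3.11 to 4.18), and matrix fibroblasts 2.04 (1.81 to 2.30) and 1.66 (1.50 to 1.83). Blood endothelium had 0.0405 and 0.0227, at or below the 0.199 and 0.0432 of immune cells, so its UMIs there could not be told from free RNA. Endothelium was lower than mural cells by a log2 difference of -6.63 (SE 0.51, adjusted p = 1.02e-06, edgeR) and lower than matrix fibroblasts by -6.09 (SE 0.49, adjusted p = 4.19e-07, edgeR). Mural cells and matrix fibroblasts were not separated, at a log2 difference of 0.53 (SE 0.36, adjusted p = 0.476, edgeR), and their intervals overlapped in Batch 1 and not in Batch 2.

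Ednrb, the type B receptor, had a pattern of its own, high in blood endothelium and in the Tgfbi-rich group. Blood endothelium had 5.01 UMIs per 10000 in Batch 1 (4.57 to 5.47) and 11.4 in Batch 2 (11.0 to 11.7), and the Tgfbi-rich group 6.16 (5.13 to 7.34) and 4.50 (4.00 to 5.04). The order of these groups differed between the mice, with the Tgfbi-rich group above endothelium in Batch 1 and below it in Batch 2. Mural cells had 0.616 and 1.40, and matrix fibroblasts 0.469 and 0.481, close to the 0.331 and 0.432 of immune cells. Endothelium was higher than mural cells by a log2 difference of 3.00 (SE 0.74, adjusted p = 0.0104, edgeR) and higher than matrix fibroblasts by 4.07 (SE 0.73, adjusted p = 0.000559, edgeR). With only cells of at most 5% mitochondrial UMIs, the Ednrb difference from mural cells was 2.36 and no longer passed (adjusted p = 0.0535, edgeR).

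In epithelium Ednrb was at 1.00 in Batch 1 and 0.105 in Batch 2, and Ace at 0.456 and 0.0538. The blood endothelial marker list summed to 7.47 and 0.548 in the same epithelial cells, with 9 of 9 markers detected in each batch, and its part in those values was not tested.

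**Figure D2:**
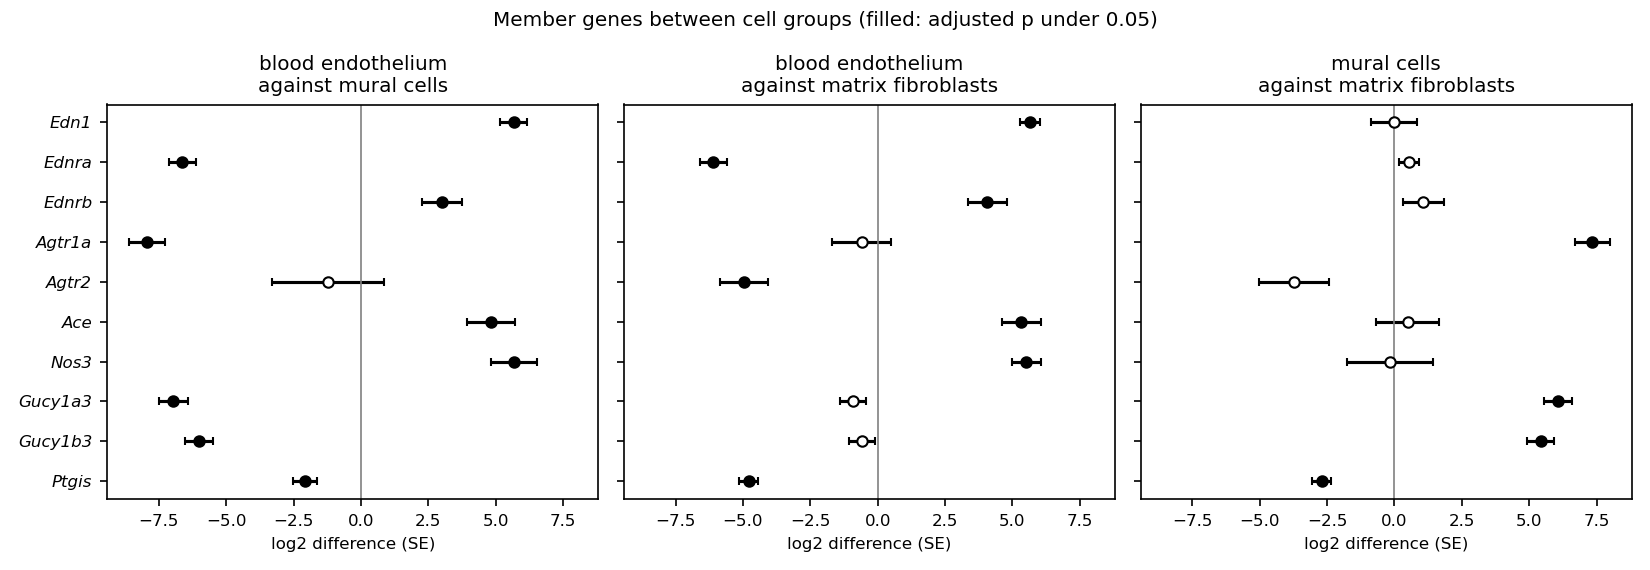
Log2 differences between cell groups (horizontal axes, first group over second) for the 10 genes (rows). Bars show the SE derived from the F statistic of the test, and filled points an adjusted p under 0.05 in edgeR. The filled points number 9, 7 and 4 from left to right, and the Agtr2 estimate against mural cells has the widest bar.

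Ace was an endothelial gene among the angiotensin genes. Blood endothelium had 3.28 UMIs per 10000 in Batch 1 (2.94 to 3.66) and 4.02 in Batch 2 (3.84 to 4.21), with UMIs in 38.5% and 55.0% of cells. Mural cells had 0.205 and 0.118 and matrix fibroblasts 0.0439 and 0.113, within or below the intervals of immune cells, which were at 0.265 and 0.0950. The levels of endothelium stood far above the other groups in both mice. The log2 difference was 4.84 (SE 0.89, adjusted p = 0.00127, edgeR) against mural cells and 5.33 (SE 0.72, adjusted p = 4.36e-05, edgeR) against matrix fibroblasts.

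The angiotensin receptor genes were in separate mesenchymal cells. Agtr1a, the type 1 receptor, was a gene of mural cells, which held 88.2% and 90.4% of its UMIs. Mural cells had 1.54 UMIs per 10000 in Batch 1 (0.862 to 2.54, 15 UMIs) and 1.68 in Batch 2 (1.34 to 2.07, 85 UMIs), while blood endothelium had 0 and 3 UMIs, matrix fibroblasts 1 and 2, and immune cells 0 in both batches. Over both batches the ratio of mural cells to blood endothelium was 298 (exact 95% interval of the counts 99.1 to 1469) and that to matrix fibroblasts 212 (70.4 to 1045). In edgeR the log2 differences were -7.93 for endothelium against mural cells (SE 0.66, adjusted p = 2.43e-06) and 7.34 for mural cells against matrix fibroblasts (SE 0.65, adjusted p = 7.45e-06). The near copy Agtr1b had 0 UMIs in mural cells in both batches.

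Agtr2, the type 2 receptor, was a gene of matrix fibroblasts, which held 88.5% and 84.0% of its UMIs. Its level there was 0.337 UMIs per 10000 in Batch 1 (0.247 to 0.449, 46 UMIs) and 0.170 in Batch 2 (0.122 to 0.229, 42 UMIs), and only 2.59% and 2.18% of matrix fibroblasts had a UMI. Blood endothelium had 3 and 0 UMIs and mural cells 0 and 1. Matrix fibroblasts were higher than endothelium, with a ratio of 41.3 over both batches (13.7 to 204) and a log2 difference of -4.97 for endothelium against fibroblasts (SE 0.89, adjusted p = 0.000587, edgeR). The difference from mural cells did not pass, at -3.74 for mural cells against fibroblasts (SE 1.30, adjusted p = 0.101, edgeR), and with 1 UMI in the mural cells of the 2 mice together their level could not be resolved.

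Nos3, the synthase of nitric oxide, was read in endothelium at low depth. Blood endothelium had 0.578 UMIs per 10000 in Batch 1 (0.437 to 0.748, 57 UMIs) and 0.932 in Batch 2 (0.844 to 1.03, 411 UMIs), in 8.83% and 18.0% of cells, against 0.571% and 0.192% of immune cells. Mural cells had 0 and 1 UMI and matrix fibroblasts 1 and 5. Endothelium was higher than mural cells by a log2 difference of 5.68 (SE 0.87, adjusted p = 0.000293, edgeR) and higher than matrix fibroblasts by 5.52 (SE 0.55, adjusted p = 2.52e-06, edgeR). Over both batches the ratio of endothelium to mural cells was 52.4, with a wide interval of 9.35 to 2072 because the mural count was 1. Lymphatic endothelium had 2 and 4 Nos3 UMIs, a level of 0.298 and 0.344 whose intervals, 0.0361 to 1.08 and 0.0937 to 0.880, reached from near the background to the level of blood endothelium.

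The cyclase subunit genes were mural genes. Gucy1a3, the alpha subunit, had 30.6 UMIs per 10000 in mural cells of Batch 1 (27.2 to 34.3) and 25.3 in Batch 2 (23.9 to 26.7), and Gucy1b3, the beta subunit, 11.5 (9.46 to 13.8) and 13.2 (12.2 to 14.2). Gucy1a3 was at 0.284 and 0.143 in blood endothelium and at 0.469 and 0.267 in matrix fibroblasts, and Gucy1b3 at 0.243 and 0.129 and at 0.308 and 0.202. In both mice the other 5 groups lay below the mural interval for both genes. Mural cells were higher than matrix fibroblasts by log2 differences of 6.06 for Gucy1a3 (SE 0.51, adjusted p = 3.52e-06, edgeR) and 5.42 for Gucy1b3 (SE 0.50, adjusted p = 6e-06, edgeR). Against endothelium the differences, taken as endothelium over mural cells, were -6.96 (SE 0.54, adjusted p = 1.02e-06) and -6.02 (SE 0.51, adjusted p = 1.78e-06) in edgeR. Endothelium and matrix fibroblasts were not separated for either subunit, at -0.90 (SE 0.48, adjusted p = 0.196, edgeR) and -0.60 (SE 0.48, adjusted p = 0.421, edgeR). Of these 6 groups the Tgfbi-rich group came next in order, with 0.985 and 1.27 for Gucy1a3 and 0.690 and 0.772 for Gucy1b3.

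Ptgis, prostacyclin synthase, was a gene of matrix fibroblasts rather than of endothelium in these cells. Matrix fibroblasts had 1.69 UMIs per 10000 in Batch 1 (1.48 to 1.92) and 2.50 in Batch 2 (2.31 to 2.70) and held 76.5% and 77.5% of its UMIs. Blood endothelium had 0.0811 and 0.0793, which lay at the 0.165 and 0.0691 of immune cells, and mural cells 0.411 and 0.375. In edgeR endothelium was lower than matrix fibroblasts by a log2 difference of -4.79 (SE 0.34, adjusted p = 1.57e-07), mural cells were lower than matrix fibroblasts by -2.71 (SE 0.37, adjusted p = 0.000235), and endothelium was lower than mural cells by -2.08 (SE 0.45, adjusted p = 0.00423). With cells of at most 5% mitochondrial UMIs the last of these was -1.72 and did not pass (adjusted p = 0.102, edgeR). A small mesothelial-like class of 20 and 11 cells had the highest Ptgis level of any class, 4.96 in Batch 1 (3.03 to 7.67) and 8.69 in Batch 2 (6.08 to 12.0), from 20 and 36 UMIs, and with so few cells it was not tested.

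Within endothelium, general capillary cells (414 and 972), aerocyte-like capillary cells (64 and 263), arterial cells (28 and 105) and venous-like cells (19 and 52) were told apart by genes other than the 10. Car4, a carbonic anhydrase marking aerocytes, was in 79.7% and 77.2% of aerocyte-like cells and in 8.5% and 11.4% of general capillary cells, Bmx in 35.7% and 49.5% of arterial cells, and Vwf in 94.7% and 71.2% of venous-like cells. Of other aerocyte markers, Kdr was in 70.3% and 58.2% of aerocyte-like cells and Emp2 in 68.8% and 54.4%. Tbx2 was in only 34.4% and 22.8% of them and Fibin in 1.56% and 7.22%. The general capillary marker Gpihbp1 was in 40.6% and 43.3% of aerocyte-like cells and in 52.4% and 57.2% of general capillary cells. The capillary classes were thus not cleanly separated. The level of Ednrb differed between the capillary classes in each mouse. Aerocyte-like cells had 14.5 UMIs per 10000 in Batch 1 (12.6 to 16.6) and 23.0 in Batch 2 (22.1 to 24.0), against 3.39 (2.96 to 3.85) and 8.04 (7.70 to 8.39) in general capillary cells. Ednrb was found in 85.9% and 96.2% of aerocyte-like cells and in 27.3% and 62.0% of general capillary cells, and after thinning in 50.0% and 74.1% against 15.7% and 33.8%. The classes did not overlap within either mouse, and the single-mouse log2 differences were 2.08 and 1.52. Across both mice the difference was 1.66 (SE 0.54, unadjusted p = 0.00418, adjusted p = 0.97 in edgeR) and did not pass.

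None of the 10 genes passed between aerocyte-like and general capillary cells in edgeR, where 0.113% of 8818 genes passed, 0.0907% higher and 0.0227% lower in aerocyte-like cells. At an unadjusted p under 0.05 there was 1, Ednrb, and DESeq2 also called 0. With no filter on low counts Ednrb passed (1.56, adjusted p = 0.000804, edgeR), and so it did when only these classes were fitted (1.69, adjusted p = 4.99e-18, edgeR), a fit with 1 residual degree of freedom. Edn1 was at 0.857 and 2.38 in aerocyte-like cells and 0.982 and 2.85 in general capillary cells, and in Batch 2 66 of the 67 aerocyte-like cells with an Edn1 UMI also had an Ednrb UMI. Of the 263 aerocyte-like cells of Batch 2, 187 had Ednrb alone and 9 neither. With Ednrb read in nearly all of these cells, the overlap with Edn1 was nearly set by the share with Ednrb. Among 972 general capillary cells 213 had both, 89 Edn1 alone, 390 Ednrb alone and 280 neither.

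**Figure D3:**
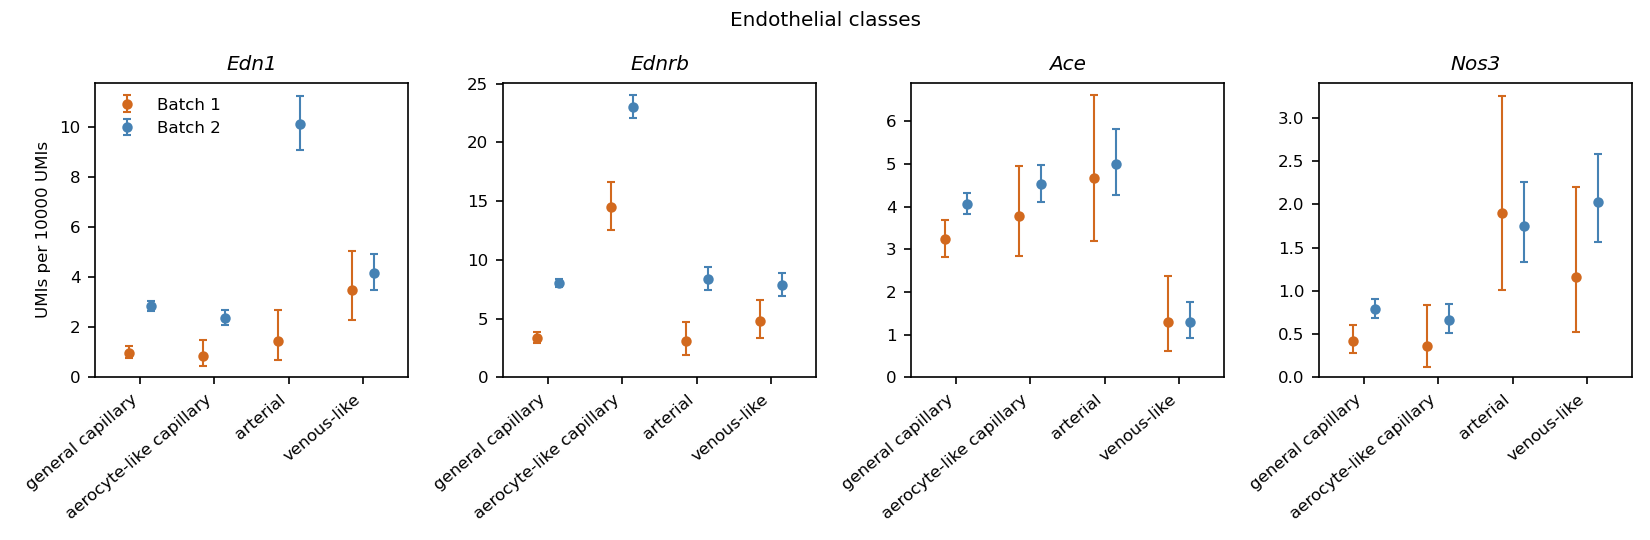
UMIs per 10000 of the 4 endothelial members (vertical axes, separate scales) in general capillary, aerocyte-like, arterial and venous-like cells, with orange for Batch 1, blue for Batch 2 and bars for exact Poisson 95% intervals. Ednrb peaked in aerocyte-like cells in both batches, Ace was lowest in venous-like cells, and arterial Edn1 rested on Batch 2.

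The Edn1 intervals of arterial and general capillary cells were apart in Batch 2 and overlapped in Batch 1. The arterial level was 1.46 UMIs per 10000 in Batch 1 (0.702 to 2.69, 10 UMIs) and 10.1 in Batch 2 (9.08 to 11.3, 342 UMIs), against 0.982 (0.761 to 1.25) and 2.85 (2.65 to 3.06). The single-mouse log2 differences were 0.55 and 1.83. In edgeR the difference over both mice was 1.32 (SE 0.36, adjusted p = 0.0495), the only member to pass, where 1.89% of genes passed, 1.36% higher and 0.533% lower in arterial cells. It did not pass in DESeq2 (1.36, adjusted p = 0.449), with clustering on all genes (1.03, adjusted p = 0.18, edgeR) or without Scrublet doublets (1.34, adjusted p = 0.113, edgeR), so it is reported as unsettled. Fos, an early response gene, had 0 UMIs in arterial cells of Batch 1 and was at 8.85 in Batch 2, and Egr1 had 0 and was at 5.06, while general capillary cells had 0.323 and 4.77 for Fos and 0.968 and 2.88 for Egr1. These genes were chosen with the values known, and their part in the Edn1 and Ednrb levels of Batch 2 was not tested.

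For Nos3 and Ace no difference between the endothelial classes tested passed. Nos3 was at 1.90 in arterial cells of Batch 1 (1.01 to 3.25) and 1.75 in Batch 2 (1.33 to 2.25), at 1.16 and 2.02 in venous-like cells, at 0.425 and 0.788 in general capillary cells and at 0.357 and 0.667 in aerocyte-like cells. Arterial intervals lay above those of general capillary cells in both mice, but the log2 difference of 1.36 did not pass (SE 0.44, adjusted p = 0.14, edgeR). Ace was at 4.68 and 5.00 in arterial, 3.78 and 4.52 in aerocyte-like and 3.24 and 4.07 in general capillary cells, neighbours in order whose intervals overlapped in both batches. Venous-like cells had the lowest endothelial Ace, 1.29 in Batch 1 (0.617 to 2.37) and 1.30 in Batch 2 (0.931 to 1.76), and also the highest Edn1 of Batch 1, 3.48 (2.29 to 5.06). With 19 cells in Batch 1 the venous-like class was below the minimum of 20 set for a test.

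Mural cells consisted of pericyte-like cells (64 and 160) and vascular smooth muscle-like cells (11 and 82). Pericyte-like cells had Higd1b in 79.7% and 77.5% of cells and Pdgfrb in 67.2% and 75.0%, and vascular smooth muscle-like cells had Acta2 in 100% and 91.5% and Higd1b in 0% and 3.66%. The Batch 1 smooth muscle-like class was too small for a test, so the values are given without one. Notch3, a mural gene, was in 35.9% and 48.1% of pericyte-like cells and in 36.4% and 43.9% of smooth muscle-like cells. The study's own cell list calls most of the smooth muscle-like cells of Batch 1 a subtype of pericyte with Acta2, so the name rests on the markers used here. Pericyte-like cells had Gucy1a3 at 38.7 UMIs per 10000 in Batch 1 (34.4 to 43.4) and 37.1 in Batch 2 (35.0 to 39.3), against 1.41 (0.291 to 4.13) and 5.36 (4.37 to 6.52) in smooth muscle-like cells. Gucy1b3 was at 14.7 (12.1 to 17.7) and 19.6 (18.1 to 21.2), against 0 UMIs and 2.34 (1.70 to 3.14). For both subunits pericyte-like levels stood above smooth muscle-like levels in each mouse with no overlap of intervals.

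The cyclase subunits were read together in most pericyte-like cells. In Batch 1, 43 of 64 had UMIs of both genes, 17 of Gucy1a3 alone, 0 of Gucy1b3 alone and 4 of neither. In Batch 2, 150 of 160 had both, 7 Gucy1a3 alone, 2 Gucy1b3 alone and 1 neither. Among the 82 smooth muscle-like cells of Batch 2, 18 had both, 22 Gucy1a3 alone, 7 Gucy1b3 alone and 35 neither, and the 11 cells of Batch 1 gave 2 with Gucy1a3 alone and 9 with neither. Every Batch 1 pericyte-like cell with the beta subunit also had the alpha subunit. The alpha subunit was missing from only 4 of these 64 cells, so such an overlap was nearly set by its share alone.

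**Figure D4:**
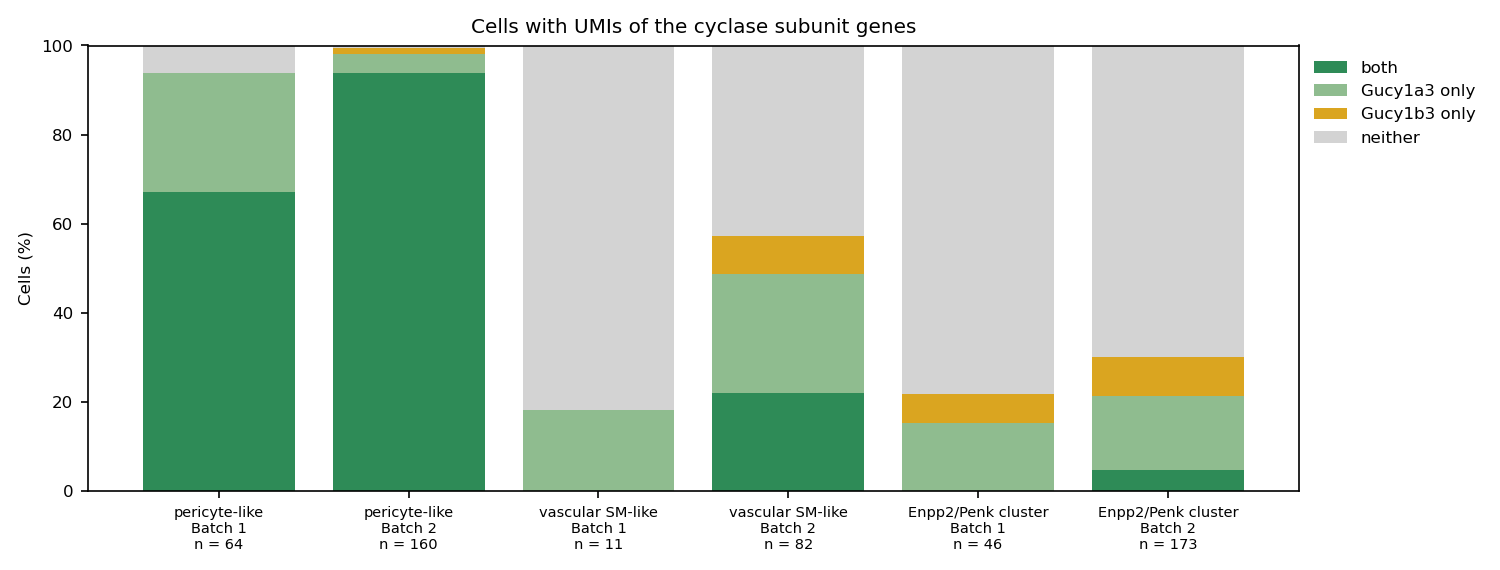
Share of cells (vertical axis, %) with UMIs of both cyclase subunit genes, of Gucy1a3 alone, of Gucy1b3 alone or of neither, in 3 classes of each batch, with n the number of cells. Both genes were read in 67.2% and 93.8% of pericyte-like cells and in 0% and 22.0% of vascular smooth muscle-like cells.

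The receptor genes differed in level between the mural classes, though Ednra was read in both classes in Batch 2. Agtr1a was at 1.97 UMIs per 10000 in pericyte-like cells of Batch 1 (1.10 to 3.25, 15 UMIs) and 2.64 in Batch 2 (2.11 to 3.27, 84 UMIs), in 20.3% and 38.1% of cells, while smooth muscle-like cells had 0 and 1 UMI, a ratio over both batches of 52.6 (9.22 to 2098). Ednra was at 3.02 (1.91 to 4.53) and 4.40 (3.70 to 5.19) in pericyte-like cells and at 0 UMIs and 2.28 (1.65 to 3.08) in smooth muscle-like cells. For both genes the 0 UMIs of Batch 1 came from 11 smooth muscle-like cells and allow a level of up to 1.41. Ednrb ran the other way, at 0.263 and 0.251 in pericyte-like cells, which is no more than the immune background, and at 1.88 (0.513 to 4.82) and 3.35 (2.57 to 4.28) in smooth muscle-like cells. Ptgis was at 0.131 and 0.0628 in pericyte-like cells and at 1.41 (0.291 to 4.13) and 0.903 (0.526 to 1.45) in smooth muscle-like cells, from 3 and 17 UMIs. In Batch 2, 35 of 160 pericyte-like cells had UMIs of both Ednra and Agtr1a, 50 of Ednra alone, 26 of Agtr1a alone and 49 of neither. At such low counts a cell can lack a UMI of a gene it expresses. These shares therefore do not show whether the receptors were in the same or in different cells.

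Among matrix fibroblasts the classes MatrixFB-1-like (850 and 1176 cells) and MatrixFB-2-like (78 and 110) shared Ednra and Ptgis and differed in Agtr2. The first had the transcription factor gene Tcf21 in 93.2% and 90.5% of cells and the second the matrix gene Mfap5 in 62.8% and 65.5%. Tcf21 was also in 47.4% and 68.2% of MatrixFB-2-like cells, so it did not separate the classes cleanly. Dcn, another matrix gene, was in 59.0% and 20.9% of MatrixFB-2-like cells. Agtr2 was at 2.38 UMIs per 10000 in MatrixFB-2-like cells of Batch 1 (1.69 to 3.25, 39 UMIs) and 1.33 in Batch 2 (0.939 to 1.84, 37 UMIs), in 24.4% and 20.9% of cells, against 0.0583 and 0.0228 in MatrixFB-1-like cells. The levels did not overlap in either mouse. In edgeR the log2 difference, MatrixFB-1-like over MatrixFB-2-like, was -5.47 (SE 0.78, adjusted p = 3.03e-05), the only one of the 10 to pass, where 4.17% of genes passed, 1.55% higher and 2.62% lower in MatrixFB-1-like cells. DESeq2 gave -5.69 with an adjusted p of 0.311.

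Ednra was at 2.11 and 1.61 in MatrixFB-1-like cells and 1.59 and 2.05 in MatrixFB-2-like cells, so the order of the classes turned between the mice (log2 difference 0.08, SE 0.43, adjusted p = 0.965, edgeR). Ptgis was at 1.72 and 2.63 against 1.46 and 1.44 (0.64, SE 0.38, adjusted p = 0.476, edgeR). Gucy1a3 was at 0.458 and 0.168 against 0.549 and 1.05 (-1.52, SE 0.54, adjusted p = 0.132, edgeR). MatrixFB-1-like cells came from different clusters in the 2 mice, with 792 and 212 cells in the largest cluster of Batch 1 and 40 and 880 in the largest of Batch 2. None of these 3 differences passed the test.

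The Tgfbi-rich group held a smooth muscle-like class with Tgfbi (115 and 246 cells) and a cluster led by Enpp2 and Penk (46 and 173 cells), which had Tgfbi in 93.5% and 71.1% of cells, Pdgfra in 47.8% and 42.2% and Hhip in 23.9% and 33.5%. The Enpp2 and Penk cluster had the highest Ednrb outside endothelium, 12.2 UMIs per 10000 in Batch 1 (9.55 to 15.4) and 5.59 in Batch 2 (4.71 to 6.60), in 60.9% and 51.4% of cells. The smooth muscle-like class was at 3.73 and 3.82, and MatrixFB-1-like fibroblasts at 0.508 and 0.455. Against MatrixFB-1-like fibroblasts 4 of the 10 genes passed in edgeR, 3 higher and 1 lower, where 8.60% of genes passed, 3.11% higher and 5.49% lower. The log2 differences were 3.71 for Ednrb (SE 0.62, adjusted p = 6.42e-05), 2.39 for Gucy1a3 (SE 0.52, adjusted p = 0.00184), 1.88 for Gucy1b3 (SE 0.52, adjusted p = 0.0156) and -5.39 for Ptgis (SE 0.71, adjusted p = 2.31e-06) in edgeR.

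Ptgis, the synthase gene, was nearly missing from the Enpp2 and Penk cluster, with 1 UMI in each batch, against 207 and 578 in MatrixFB-1-like fibroblasts, a ratio over both batches of 35.8 (9.88 to 296) for fibroblasts over the cluster. Gucy1a3 was at 1.38 (0.595 to 2.71) and 2.06 (1.54 to 2.71) and Gucy1b3 at 0.689 (0.188 to 1.76) and 1.27 (0.868 to 1.79) in the cluster. Both lay far below the pericyte-like levels given above. UMIs of both subunits were in 0 of 46 cells of Batch 1 and 8 of 173 of Batch 2. At such low levels this does not show whether a cell expressed both. Without the mouse as a block neither subunit passed (adjusted p = 0.101 and 0.142, edgeR), while Ednrb and Ptgis did. Ednra was at 0.172 and 1.15 in the cluster and did not pass (-1.45, SE 0.51, adjusted p = 0.0778, edgeR).

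**Figure D5:**
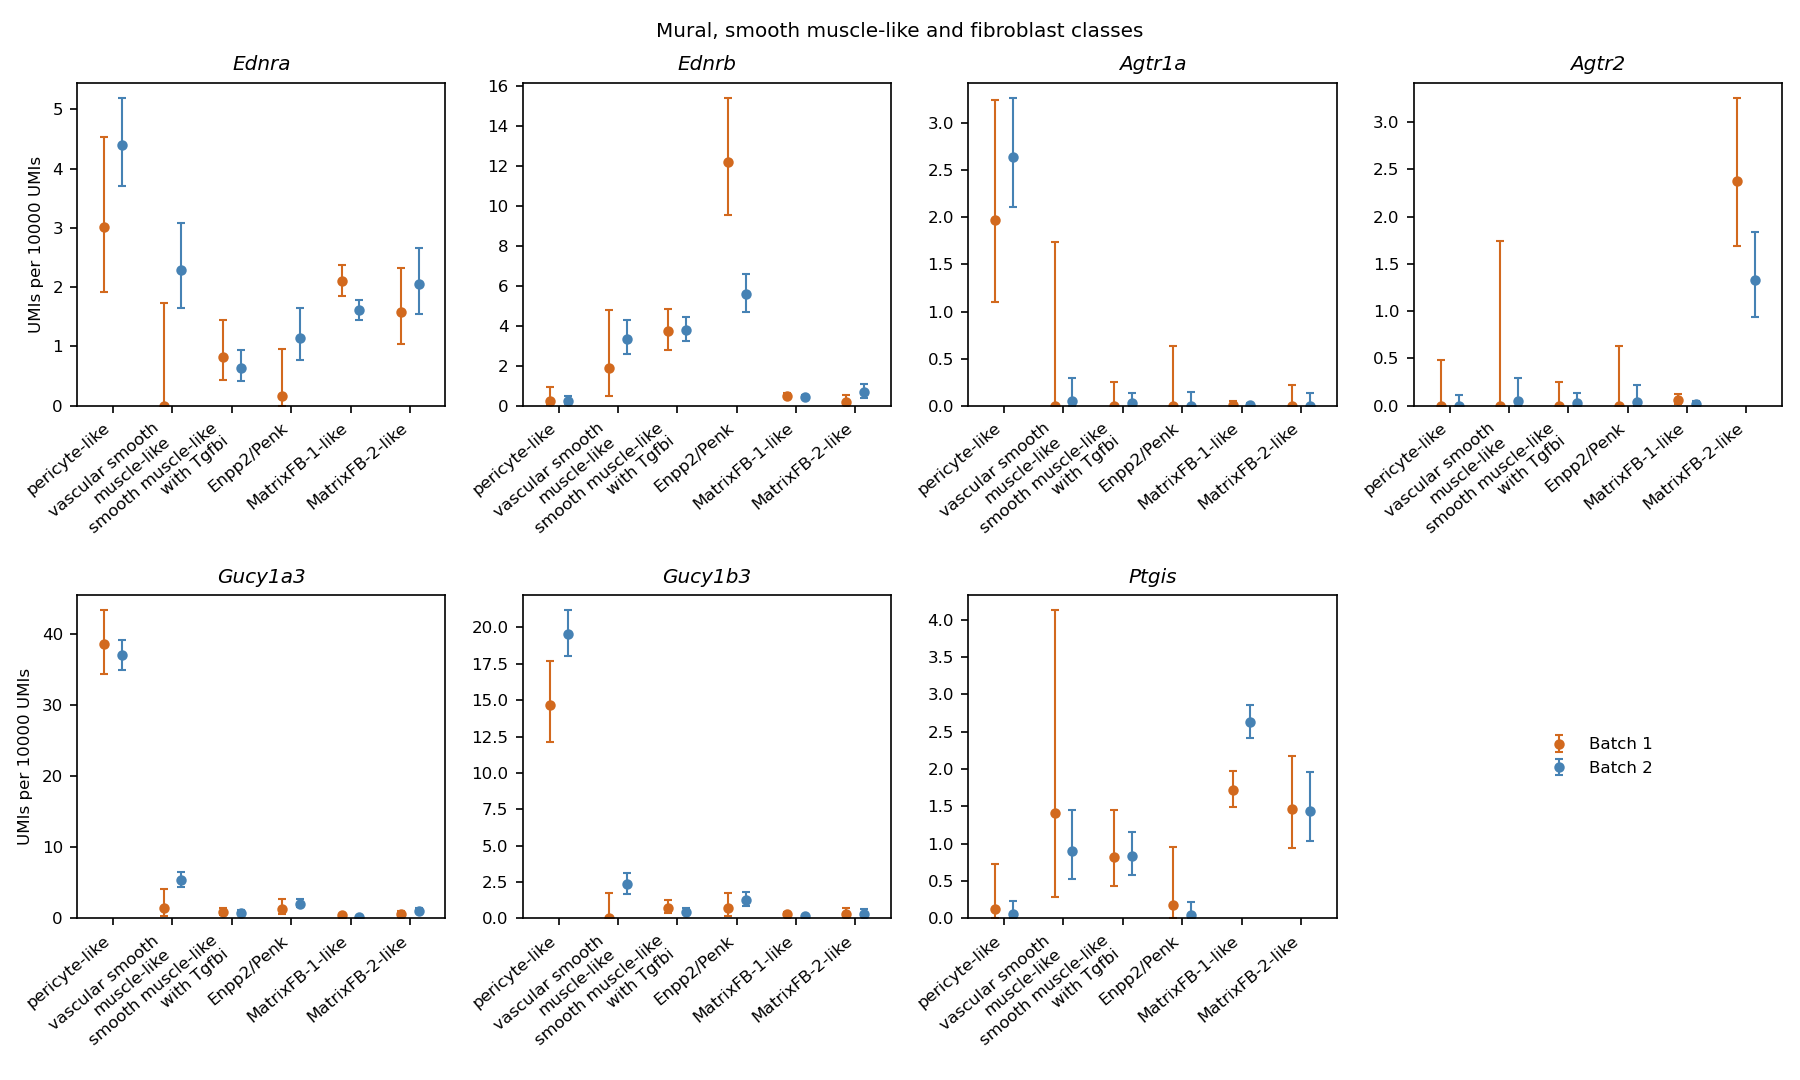
UMIs per 10000 of 7 genes (vertical axes, separate scales) in mural, smooth muscle-like and fibroblast classes, with orange for Batch 1, blue for Batch 2 and bars for exact Poisson 95% intervals. Agtr1a and both cyclase subunits stood out in pericyte-like cells, Agtr2 in MatrixFB-2-like cells, Ednrb in the Enpp2 and Penk cluster and Ptgis in MatrixFB-1-like and MatrixFB-2-like cells.

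The other genes of the 4 pathways, 43 in all from lists of ligands, enzymes, receptors and effectors, were measured in the same fits. Of the 29 that passed the filter on low counts, 6 were higher and 6 lower in blood endothelium than in mural cells, where 7.82% and 8.06% of all genes were. In endothelium against matrix fibroblasts 9 were higher and 8 lower (13.6% and 13.3% of all genes), and in mural cells against matrix fibroblasts 6 were higher and 4 lower (4.29% and 4.05% of all genes). Their median log2 differences were 0.01, 0.12 and 0.53, against 0.10, -0.03 and -0.10 over all genes. The median of 0.01 is the fitted value of Mme, which had 0 UMIs in endothelium and mural cells in both batches. It therefore does not measure a shift, or the lack of one.

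In the endothelin list, Ece1, the enzyme that cuts the endothelin precursor to the active peptide, was at 3.90 and 6.96 UMIs per 10000 in blood endothelium, against 0.205 and 0.553 in mural cells and 0.125 and 0.206 in matrix fibroblasts (log2 3.79 and 4.93, adjusted p = 8.04e-06 and 1.57e-07, edgeR). Epithelium, at 1.41 and 1.14, and the Tgfbi-rich group, at 1.67 and 2.03, lay between. Edn3, another endothelin ligand, was at 0.718 and 0.474 in mural cells, from 7 and 24 UMIs (log2 4.01 over matrix fibroblasts, adjusted p = 0.00127, edgeR). Epithelium held more of its UMIs, 37 and 210, at a level of 0.367 and 0.263, and blood endothelium had 2 and 0. Mme, neprilysin, which degrades endothelin and other peptides, was in matrix fibroblasts at 0.447 and 0.946 and had 0 UMIs in endothelium and mural cells, at least 138-fold higher than in endothelium and at least 15.5-fold higher than in mural cells when 3 UMIs over both batches are taken as the floor.

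In the angiotensin list, Agt, the gene of angiotensinogen, the precursor of angiotensin, was highest in the Tgfbi-rich group at 12.7 and 13.9, and in its Enpp2 and Penk cluster at 19.5 and 17.8, against 2.14 and 2.46 in MatrixFB-1-like fibroblasts (log2 2.61, SE 0.37, adjusted p = 8.9e-06, edgeR). Blood endothelium had 0.0507 and 0.0635. Enpep, the aminopeptidase that trims angiotensin II, was at 3.52 and 0.961 in MatrixFB-1-like fibroblasts and had 0 UMIs in the cluster in both batches, at least 19.3-fold lower there. Ren1, the gene of renin, had 1 UMI in the 3 main groups together, in endothelium of Batch 1. Agt was also read in matrix fibroblasts, the group with most Agtr2 UMIs, at 1.90 and 2.22.

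In the nitric oxide list, Cav1, caveolin 1, which binds Nos3, was at 15.5 and 18.1 in blood endothelium, 2.16 and 3.08 in mural cells and 1.53 and 1.66 in matrix fibroblasts, and passed against both (log2 2.79 and 3.32, adjusted p = 1.05e-05 and 6.92e-07, edgeR). Nostrin, a trafficking factor of Nos3, was at 3.49 and 3.79 in mural cells and at 3.65 and 3.44 in endothelium, and both were above matrix fibroblasts at 0.0659 and 0.0485 (log2 5.85 and 5.92, adjusted p = 0.000125 and 1.9e-05, edgeR). Pde5a, the phosphodiesterase that breaks down cyclic GMP, was at 5.85 and 3.10 in mural cells, above endothelium at 0.385 and 0.154 and matrix fibroblasts at 0.681 and 0.509 (log2 of mural cells over fibroblasts 2.56, adjusted p = 4.4e-05, edgeR). Prkg1, the kinase activated by cyclic GMP, was at 0.821 and 1.16 in mural cells and 0.0811 and 0.0431 in endothelium (log2 -4.11 for endothelium over mural cells, adjusted p = 6.69e-05, edgeR).

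In the prostanoid list, Hpgd, which inactivates prostaglandins, was at 6.28 and 4.98 in blood endothelium against 0.205 and 0.197 in mural cells (log2 4.82, adjusted p = 0.000184, edgeR), with immune cells at 3.01 and 1.30. The prostaglandin transporter Slco2a1 was at 2.40 and 2.60 against 0.103 and 0.0987 (log2 4.81, adjusted p = 1.21e-05, edgeR). The receptor gene Ptger2 was at 0.366 and 0.372 in matrix fibroblasts with 0 UMIs in mural cells, at least 7.45-fold higher in fibroblasts. Ptgir, the receptor of prostacyclin, had 3 and 2 UMIs in mural cells and 2 and 1 in endothelium, too few for a comparison. Ptgs1, cyclooxygenase 1, was higher in endothelium than in mural cells (log2 3.37, adjusted p = 0.0119, edgeR), at 0.345 against 0.205 in Batch 1, from 34 and 2 UMIs, and 1.65 against 0.0987 in Batch 2. The difference was thus mainly in Batch 2, and the Tgfbi-rich group, at 0.542 and 2.54, lay above endothelium in both. Ptgs1 was also higher in the Enpp2 and Penk cluster, at 0.689 and 3.85, than in MatrixFB-1-like fibroblasts, at 0.166 and 0.346 (log2 2.83, adjusted p = 0.00196, edgeR).

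Genes with the most similar pattern to each member were listed from the Pearson correlation of log2 CPM over 30 sums of 15 classes in 2 batches, among 7314 genes. The sums share libraries and depth, and the correlations are given as a description. For the endothelial genes, Edn1 was closest to Bik (0.86), Nos3 to Sema7a (0.92) and Ace to the endothelial adhesion gene Pecam1 (0.90), with Cldn5, a tight junction gene, at 0.87. For the mural genes, Agtr1a was closest to Tusc5 (0.92) and Fam101a (0.91), Gucy1a3 to Maged2 (0.86) and Gucy1b3 to Cuedc1 (0.86), with the phosphodiesterase gene Pde5a at 0.84. Ednra was closest to Arhgef25 (0.90), Ptgis to Ogn (0.86), Agtr2 to Adamts5 (0.73) and Ednrb to Palmd (0.81). Of these first-ranked correlations that of Agtr2 was the lowest.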

How the data were processed

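The authors deposited 1 matrix of UMI counts per batch: reads were aligned to mm10 with Bowtie2 2.2.7 and exon-tagged UMIs counted with Drop-seq tools, with no normalization. Counting over exons loses nuclear intronic RNA. Cells with under 500 genes were absent, and the mitochondrial limit of 10% was applied here. The 10 genes and the pathway lists were chosen with earlier results of these data known. Both were left out of the clustering (Python 3.11.15 with scanpy 1.11.5, leidenalg 0.10.2, igraph 0.11.9, scikit-learn 1.9.0, scipy 1.17.1 and numpy 2.4.6, from 2000 variable genes, 30 components, 20 neighbours and resolution 1), which gave 32 clusters, of which 4 with 213 cells stayed unnamed. Genes that define the clusters remain among all genes tested and raise the shares called. Scrublet marked 13 cells (0.544%) in Batch 1 and 118 (2.10%) in Batch 2, kept except in an alternative. UMIs were summed by class and batch, for classes of at least 20 cells in each batch, and tested with edgeR 4.0.16 in R 4.3.3 (TMM, filterByExpr, quasi-likelihood). DESeq2 1.42.0 was an alternative. The batch was the replicate block because classes of a batch come from the same mouse. Batch differences of 2 groups correlated at 0.120 to 0.430 over 15 pairs (median 0.252). Single-batch log2 ratios used a prior count of 2, and thinning drew 600 UMIs per cell. Named genes were the 10, the pathway genes past the threshold and, per member, the 3 genes of highest correlation among those with at least 50 CPM in a class (pseudocount 1). Ren1 and Ptgir were named, and Fos, Egr1, Atg9b and Agtr1b chosen, with their values known.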

Additional observations from a re-analysis of the deposited data

Results flagged for a closer look

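In Batch 2 the matrix holds 1940 further cells above the mitochondrial limit, against 1 in Batch 1, and no comparison used them. All 10 genes were read in them above the limit that a count of 0 allows. Higher than in the kept cells of Batch 2 were Gucy1a3, at 1.53 UMIs per 10000 against 0.855, Gucy1b3, at 0.771 against 0.486, Agtr1a, at 0.0954 against 0.0516, Ednra, at 0.513 against 0.392, and Agtr2, at 0.0338 against 0.0274. Lower were Edn1, at 0.897 against 1.01, Ednrb, at 2.40 against 3.23, Ace, at 0.779 against 1.09, Nos3, at 0.179 against 0.257, and Ptgis, at 0.364 against 0.437. The 4 endothelial genes were thus all on the lower side and the 3 pericyte-like genes on the higher side. These cells were not assigned to classes, and the difference was not tested.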

How the results depend on the processing

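The direction of no value that passed was turned by any alternative, and over all member fits 516 alternative values kept their side of the threshold, 12 lost it and 10 gained it. The counts of members passing were 9, 7 and 4 between blood endothelium, mural cells and matrix fibroblasts, and moved by less than 1.5 times under every alternative. For aerocyte-like against general capillary cells the count was 0, and 1 with no gene filter or with only the classes compared. For arterial against general capillary cells it was 1, then 0 with no replicate block, with DESeq2, with no gene filter, with clustering on all genes, with a 5% mitochondrial limit or without Scrublet doublets, and 2 with only the classes compared. For MatrixFB-1-like against MatrixFB-2-like it was 1, then 0 with DESeq2 and 2 with no gene filter. For the Enpp2 and Penk cluster it was 4, and 2 with no replicate block. With no block for the mouse, calls over all genes went from 1873 to 1216 for endothelium against mural cells, 3181 to 2003 for endothelium against matrix fibroblasts, 984 to 414 for mural cells against matrix fibroblasts, 10 to 1 for aerocyte-like, 167 to 53 for arterial, 368 to 87 for the matrix fibroblast classes and 758 to 418 for the cluster. Other shifts above 1.5 times were 1486 with no gene filter for mural cells against matrix fibroblasts, 24 with no gene filter, 257 with only the classes compared, 4 with clustering on all genes and 5 each with the 5% limit and without doublets for aerocyte-like cells, and 305, 544 and 103 with no gene filter, only the classes compared and the 5% limit for arterial cells. The causes were not tested. Without TMM the median of all genes moved from -0.13 to 0.25 for the cluster and from -0.10 to 0.15 for mural cells against matrix fibroblasts, and no member changed sign among those that passed. With 1 mouse left out no spread remains, so these are ratios without a test. Only members that passed were checked for a shift. Of 140 ratios, 25 moved by more than 1 SE of the fit. The other 115 include every ratio of members that did not pass, so they do not show stability. Member levels in Batch 1 kept within their intervals with the cell types the authors list, which may themselves rest on some of these genes. The list used held 1998 cells of Batch 1. Most listed cells of the classes compared carried the matching label, so close values were likely from the start. Pericyte-like against vascular smooth muscle-like cells could not be tested. The limits are 2 mice, counts of under 100 UMIs per batch for Agtr1a and Agtr2, and classes rebuilt from clusters.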
